A study of Mus musculus with 15 samples.

Results

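The mRNA encoding 10 effector and regulatory cytokines were followed in mouse CD8+ T cells: Ifng, Tnf, Lta, Ltb, Il2, Il3, Il10, Il21, Il24 and Lif. The members were chosen by symbol, with earlier results of these data known. All 10 were found among the 11262 mRNA listed for naïve and activated cells, and 7 of them among the 11211 mRNA listed for cytotoxic T lymphocytes (CTL). Il2, Il3 and Il21 are not listed in the CTL table and were not analysed there. Every cell came from LCMV-P14 TCR transgenic mice, whose CD8+ T cells carry a single receptor for the viral peptide gp33-41. In the first experiment, lymph node cells of mice 9 to 13 weeks old were pooled from 3 mice per replicate and divided among 3 groups of 3 replicates each. Naïve cells were sorted ex vivo as TCRβ+, CD8+, CD62L high and CD44 low. TCR activated cells had spent 24 h in medium that held gp33-41 at 100 ng/ml, IL-12 at 2 ng/ml and IL-2 at 20 ng/ml, and the PI3Kdi group also received 10 µM IC87114, an inhibitor of the lipid kinase PI3K p110δ. Both activated groups were sorted as live CD8+ cells. In the second experiment, CTL were made by 48 h of activation and 4 days of culture with 20 ng/ml IL-2. They were then washed and kept for a further 24 h with IL-2 at the same concentration or without IL-2, with 3 replicates each. The labels give neither an age, a pool size nor a sort for the CTL. The treatment labels of 2 of the 3 libraries of CTL with IL-2 name other interleukins, and these libraries were grouped by their titles.

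Cytokines are secreted or membrane-bound proteins through which T cells act on other cells. In CD8+ T cells, receptor triggering switches on cytokine genes through calcium, MAP kinase and NF-κB signals, and cytokine receptors add signals of their own: the IL-2 receptor acts through JAK kinases and STAT5, and PI3K p110δ produces a membrane lipid that activates the kinase AKT. AKT keeps FOXO1, a forkhead transcription factor, out of the nucleus. The 10 members have different duties. IFN-γ, TNF and lymphotoxin-α are inflammatory effectors, lymphotoxin-β anchors lymphotoxin-α to the membrane, IL-2, IL-3 and IL-21 act on lymphocytes or blood cell precursors, IL-10 limits inflammation, IL-24 is a relative of IL-10, and LIF belongs to the IL-6 family. The files hold mRNA, and secreted protein was not analysed here. In pooled RNA, fewer cells that make a cytokine and less mRNA per cell cannot be told apart.

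The depth of each library, estimated from the spacing of its lowest values, was 9.8 to 14.6 M reads. At this depth the 3 naïve libraries held an estimated 2.0, 1.0 and 1.0 reads of Ifng. The 5 CD8 and CD3 genes used as markers were listed in both tables, and their summed FPKM was 3189 to 3482 in naïve cells, 637 to 685 in TCR activated cells, 811 to 953 with PI3Kdi, 971 to 1042 in CTL with IL-2 and 1876 to 2069 without IL-2. FPKM are scaled for exon length and library size, so that levels of different genes can be set side by side. Of 5 B cell markers, 4 were listed in the first table, at a summed 20.9 to 26.3 FPKM in naïve cells, 4.63 to 7.12 in TCR activated cells and 3.30 to 4.58 with PI3Kdi. Cd79b alone was listed in the CTL table, at 2.74 to 6.30 FPKM with IL-2 and 10.8 to 20.6 without. Of 3 CD4 T cell markers, Foxp3 and Zbtb7b were listed in the first table, with a summed 0.10 to 0.37 FPKM in naïve cells, 0.67 to 0.75 in TCR activated cells and 1.36 to 1.48 with PI3Kdi. Cd4 and Zbtb7b were listed for CTL, with a sum of 16.8 to 21.4 FPKM with IL-2 and 25.6 to 30.2 without. Most of this sum was Zbtb7b, and mean Cd4 was 0.230 FPKM with IL-2 and 1.40 FPKM without. One marker of 5 was listed for myeloid cells, Itgam, at 0.20 to 0.39 FPKM in CTL with IL-2, 3.89 to 4.46 without IL-2 and at most 0.30 in the first experiment. For dendritic cells, the first table listed Zbtb46 alone of 5 markers, at 0.05 to 0.10 FPKM in naïve cells, 0.48 to 0.64 in TCR activated cells and 0.07 to 0.16 with PI3Kdi, and the CTL table Itgax alone, at 0.21 to 0.39 FPKM with IL-2 and 3.67 to 5.17 without. None of 4 NK cell markers was listed in the first table, and Klrb1c was at 1.20 to 1.88 FPKM in CTL with IL-2 and 2.17 to 3.41 without. The part of other cell types in the results below was not tested.

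TCR activation moved all 10 cytokine mRNA, 5 of which were blank in naïve libraries, and PI3Kdi moved 8, 7 down and 1 up. An mRNA was called changed in limma where its fold exceeded 2 in either direction with a Benjamini-Hochberg adjusted p below 0.05. By that rule 9 members rose and Ltb fell between naïve and TCR activated cells, where 48.7% of all mRNA were called, 25% higher and 23.7% lower. The cells of Il2, Il3, Il10, Il21 and Il24 are blank in every naïve library. Blank cells were read as 0. These 5 members could be listed only through activated libraries, so their calls against naïve cells are no test. Their fitted folds against naïve cells depend on the pseudocount. For Il2 on TCR activation the log2 fold change was 3.35 at a pseudocount of 1 and 9.82 at 0.01. With PI3Kdi, Ifng, Il3, Il24, Lta, Il2, Tnf and Lif fell against TCR activated cells, Il21 rose, and Ltb and Il10 were not called. The calls of Il2, Il21 and Lif were lost in some alternative fits, given below. Il3 and Il24 were listed through the TCR activated libraries, where they are high, so their falls are no independent test. The calls with PI3Kdi are to be read against 5.14% of all mRNA called in that comparison, 3.04% higher and 2.1% lower. In CTL deprived of IL-2, 6 of the 7 members listed fell and Ltb rose, with 28.2% of all mRNA called, 14.3% higher and 13.9% lower. Of these, Il10 and Il24 were listed through the libraries with IL-2, so their falls are no independent test. The median log2 fold change over the members was -1.43 with PI3Kdi and -4.63 without IL-2, against -0.0076 and -0.0009 over all mRNA. Because the choice of members was made with earlier results known, these shares and medians describe the members and test no enrichment. The panel of cytokine levels in all libraries shows these groups gene by gene.

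**Figure D1:**
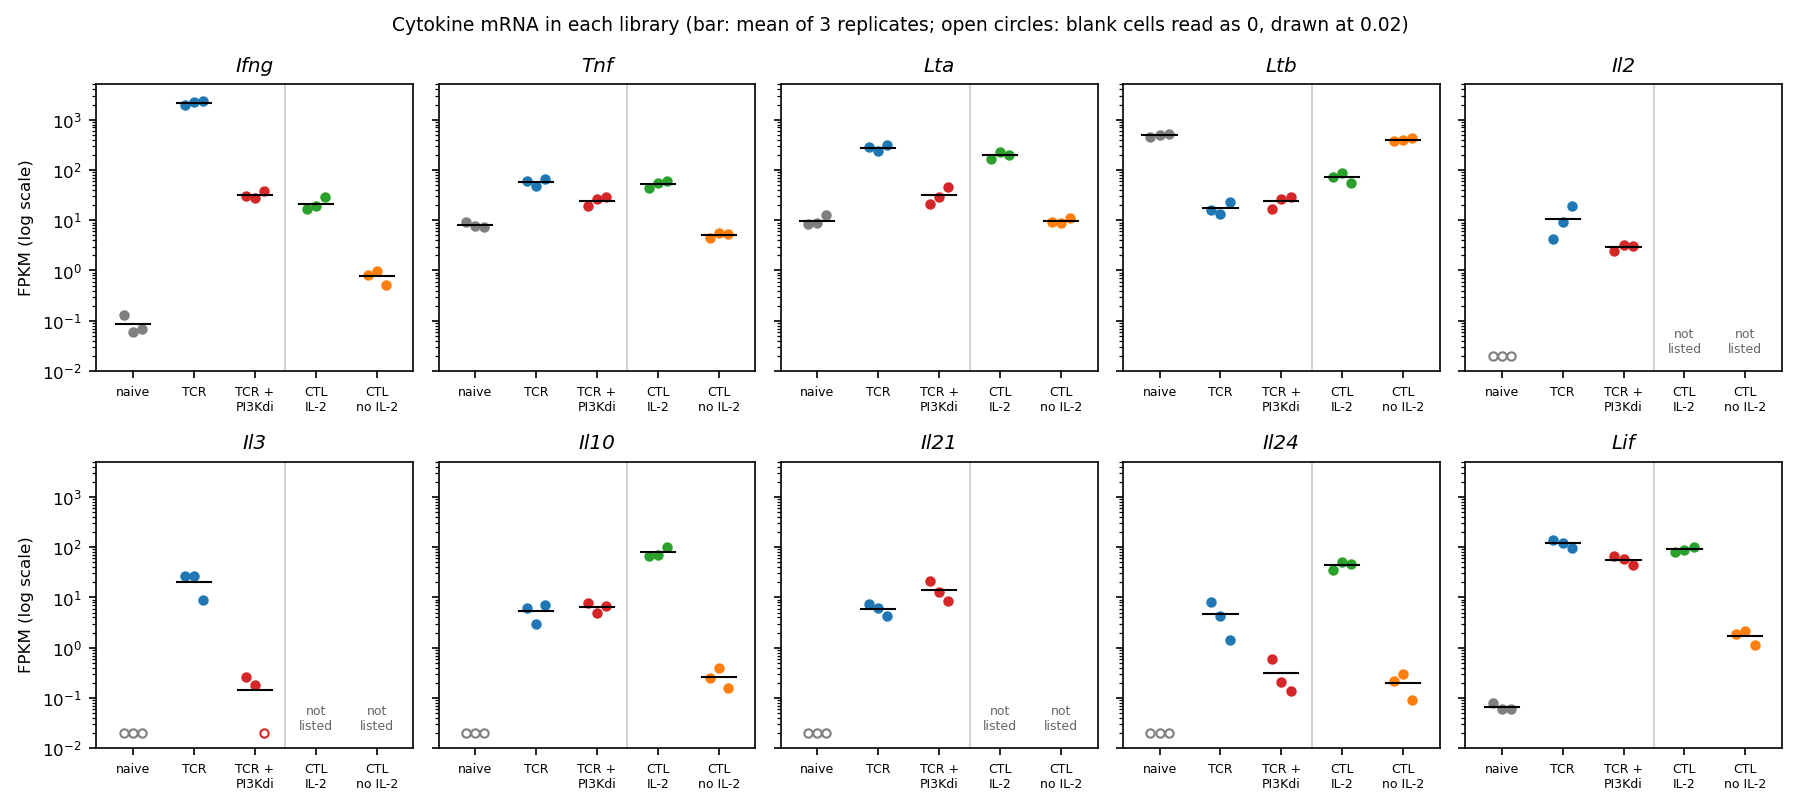
FPKM of each cytokine mRNA (log axis) in the 3 libraries of each group, with a bar at the mean and open circles for blank cells, read as 0. The grey line separates the tables, which were normalized separately. Ifng spans the widest range, from 0.06 FPKM in a naïve library to 2299 FPKM in a TCR activated library, and Ltb alone is highest in naïve cells.

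Ifng (Entrez 15978), on chromosome 10 of GRCm38.p6 (chr10:118441046-118445894), encodes interferon-γ, the cytokine that activates macrophages and antigen presentation. Its mRNA was at 0.13, 0.06 and 0.07 FPKM in the naïve libraries and at 1949.8, 2290.0 and 2299 FPKM after TCR activation. With PI3Kdi it was at 30.9, 27.5 and 38.8 FPKM. The 3 groups were far apart, with no overlap, and Ifng had the largest fitted rise of the 11262 mRNA on activation, at a log2 fold change of 13.53 (SE 0.16). That value rests on 1 to 2 reads per naïve library and moved between 10.97 and 14.52 with other settings, the lowest with a pseudocount of 1. With PI3Kdi, Ifng fell by 6.08 on the log2 scale (SE 0.16, limma adjusted p = 5.94e-09), which left 1.49% of the TCR activated mean. Ifng thus held the third largest fall of all mRNA, and it was lower in 3 of 3 same-numbered pairs of libraries. The mRNA was still above naïve cells, with a fitted log2 fold change of 7.45 (SE 0.16).

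In CTL, Ifng was at 16.3, 18.8 and 28.9 FPKM with IL-2 and at 0.81, 0.97 and 0.51 FPKM without it. The groups did not overlap. The log2 fold change was -4.63 (SE 0.25, limma adjusted p = 5.69e-07), the 19th largest fall of 11211 mRNA. An estimated 32 reads in the 3 deprived libraries stand behind the 3.58% that remained, with a 95% counting interval of 2.45% to 5.05%. Such Poisson intervals cover the counting error of the low group alone, and reads without molecular identifiers are not independent molecules. Mean Ifng was 102.1 times higher in TCR activated cells than in CTL with IL-2, a ratio across separately normalized tables that was not tested.

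Tnf, Lta and Ltb lie side by side on chromosome 17, and were placed at 3 different points of the response. On GRCm38.p6, Ltb (Entrez 16994) is at chr17:35194507-35196305 on the plus strand, and Tnf (Entrez 21926, chr17:35199367-35202007) and Lta (Entrez 16992, chr17:35203165-35205578) are on the minus strand. The gap between Tnf and Lta is 1.2 kb and that between Tnf and Ltb 3.1 kb. Annotated microRNA genes overlap Lta (Mir6974) and Ltb (Mir6973a). The 250 bases before 1 RefSeq start of each gene on GRCm38.p6 are shown because neighbouring genes moved in opposite directions. For Tnf and Ltb the start is the outer end of the gene. For Lta it lies 227 bases inside the gene bounds given above, so that 227 of the 250 bases are within the annotated gene. They are written 5′ to 3′ on the strand of the gene, with matches to the motifs listed after them in capitals. Tnf comes from chr17:35202008-35202257 (minus), Lta from chr17:35205352-35205601 (minus) and Ltb from chr17:35194257-35194506 (plus).
Tnf: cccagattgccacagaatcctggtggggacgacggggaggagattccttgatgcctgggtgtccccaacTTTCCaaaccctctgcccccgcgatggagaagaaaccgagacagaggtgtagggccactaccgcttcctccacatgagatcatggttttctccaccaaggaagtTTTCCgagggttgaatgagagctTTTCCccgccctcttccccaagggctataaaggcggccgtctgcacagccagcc
Lta: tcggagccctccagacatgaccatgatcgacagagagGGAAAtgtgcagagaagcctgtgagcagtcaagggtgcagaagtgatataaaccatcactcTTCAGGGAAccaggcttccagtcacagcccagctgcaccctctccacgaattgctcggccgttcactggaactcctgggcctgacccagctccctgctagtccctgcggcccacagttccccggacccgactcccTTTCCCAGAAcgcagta
Ltb: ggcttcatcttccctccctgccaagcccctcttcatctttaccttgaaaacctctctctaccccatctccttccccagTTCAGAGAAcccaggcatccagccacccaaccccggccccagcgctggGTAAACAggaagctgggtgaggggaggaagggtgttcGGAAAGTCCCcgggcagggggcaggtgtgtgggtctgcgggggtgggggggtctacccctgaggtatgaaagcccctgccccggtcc
The motifs, searched on both strands, were GGAAA (the core bound by NFAT), TGANTCA (AP-1), TTCNNNGAA (STAT), GTAAACA (forkhead) and the 10-letter NF-κB motif. GGAAA was found 3 times in the Tnf window, 2 times in that of Lta and 1 time in that of Ltb, and is present in 55.6% of the 32851 promoter windows of this length. TTCNNNGAA was found 2 times in the Lta window and 1 time in the Ltb window, and 7.02% of all windows hold it. The Lta matches lie within the annotated gene. Ltb alone of the 8 members with a sequence held GTAAACA, which 3.17% of windows hold. Ltb also held the NF-κB motif, present in 17.6% of windows. In Lta the second GGAAA match overlaps the second STAT match, and in Ltb the GGAAA match lies inside the NF-κB match. A match of letters is a description of these windows and shows no binding.

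Tnf encodes tumour necrosis factor, a trimeric effector that triggers inflammation and cell death. Its mRNA was at 9.09, 7.80 and 7.42 FPKM in naïve cells, at 60.2, 48.5 and 65.8 FPKM after TCR activation and at 19.6, 26.0 and 28.4 FPKM with PI3Kdi. The PI3Kdi libraries lay between the other groups without touching either. Tnf rose on activation (log2 fold change 2.82, SE 0.15) and with PI3Kdi fell by 1.24 on the log2 scale (SE 0.15, limma adjusted p = 0.000359). In CTL, Tnf was at 42.8, 55.8 and 59.0 FPKM with IL-2 and at 4.39, 5.45 and 5.35 FPKM without. Its fall of 3.34 on the log2 scale (SE 0.14) left 9.64% of the mean with IL-2, and the libraries without IL-2 were below all 3 naïve libraries of the other, separately normalized table, which was not tested.

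Lta encodes lymphotoxin-α, a secreted relative of TNF that shares the TNF receptors. Lta was at 8.24, 8.64 and 12.5 FPKM in naïve cells, at 290.2, 235 and 306 FPKM after activation and at 20.8, 28.9 and 45.4 FPKM with PI3Kdi. The groups did not overlap, although the PI3Kdi libraries differed from each other by 2.18 times. The mRNA rose by a log2 fold change of 4.83 (SE 0.25) on activation. With PI3Kdi, Lta fell by 3.19 on the log2 scale (SE 0.25, limma adjusted p = 1.48e-05), to 11.4% of the TCR activated mean, where its neighbour Tnf kept 42.4%. In CTL, Lta was at 165, 226 and 195 FPKM with IL-2 and at 9.32, 8.62 and 11.1 FPKM without, a fall of 4.32 on the log2 scale (SE 0.13) with no overlap.

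Ltb encodes lymphotoxin-β, the membrane subunit that forms heterotrimers with lymphotoxin-α and engages the lymphotoxin-β receptor. Ltb was at 452, 494 and 519 FPKM in naïve cells, the 118th most abundant mRNA there. It was at 16.1, 13.02 and 22.5 FPKM after TCR activation, a fall of 4.85 on the log2 scale (SE 0.21) that left 3.53% of the naïve mean. With PI3Kdi the libraries were at 16.7, 26.0 and 28.6 FPKM, and overlapped the TCR activated ones. Their log2 fold change of 0.46 had a 95% confidence interval from -0.01 to 0.93 (limma adjusted p = 0.167). In CTL, Ltb was at 73.5, 84.9 and 54.6 FPKM with IL-2 and at 371, 387 and 438 FPKM without IL-2. The second group was well above the first, by a log2 fold change of 2.51 (SE 0.15, limma adjusted p = 8.25e-07). Ltb thus rose without IL-2 while Tnf and Lta, which both lie on the same side of it, fell. Among TCR activated cells the order of levels was Lta, Tnf, Ltb, at 277, 58.1 and 17.2 FPKM. In naïve cells Ltb led at 488 FPKM, and Tnf at 8.10 and Lta at 9.80 FPKM had overlapping libraries.

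Il2 and Il21 are neighbours on chromosome 3, and with PI3Kdi Il2 fell and Il21 rose, by calls that some alternative fits lost. Il2 (Entrez 16183, chr3:37120713-37125954) encodes IL-2, the growth factor of activated T cells, and Il21 (Entrez 60505, chr3:37222759-37232636) encodes IL-21, a cytokine of the same receptor family that is made mainly by CD4 T cells. Both are on the minus strand with 96.8 kb between them, and Il21 overlaps the annotated gene Gm36168. Their 250 bases before the start, from RefSeq on GRCm38.p6, are given for the same reason and with the same capitals, from chr3:37125955-37126204 (minus) and chr3:37232637-37232886 (minus).
Il2: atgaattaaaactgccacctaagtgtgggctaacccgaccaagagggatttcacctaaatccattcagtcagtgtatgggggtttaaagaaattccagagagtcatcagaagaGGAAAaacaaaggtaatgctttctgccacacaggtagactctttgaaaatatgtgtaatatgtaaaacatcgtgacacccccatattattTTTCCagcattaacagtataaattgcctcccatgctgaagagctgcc
Il21: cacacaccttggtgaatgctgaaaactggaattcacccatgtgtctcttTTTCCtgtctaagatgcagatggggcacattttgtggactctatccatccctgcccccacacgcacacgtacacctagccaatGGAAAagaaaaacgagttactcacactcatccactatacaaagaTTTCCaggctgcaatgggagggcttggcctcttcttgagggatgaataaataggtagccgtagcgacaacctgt
GGAAA was found 2 times before Il2 and 3 times before Il21, and none of the other 4 motifs was found in either window.

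Il2 was blank in all 3 naïve libraries. It was at 4.15, 9.35 and 18.8 FPKM in TCR activated cells and at 2.46, 3.20 and 3.05 FPKM with PI3Kdi. The TCR activated libraries differed by 4.54 times among themselves, and those with PI3Kdi lay below all of them. The log2 fold change was -1.61 (SE 0.41, limma adjusted p = 0.0211), and 26.9% of the TCR activated mean remained, or 43.0% without TCR replicate 3. This call was lost with the activated groups fitted without the naïve cells (adjusted p = 0.0583), without TCR replicate 2 (adjusted p = 0.0618), and without PI3Kdi replicate 1, 2 or 3 (adjusted p = 0.0684, 0.0579 and 0.0504). The cells were cultured with IL-2 protein in both groups, and the values here are of the cells' own mRNA.

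Il21 was also blank in the naïve libraries. It was at 7.53, 6.05 and 4.24 FPKM after TCR activation and at 21.5, 13.1 and 8.57 FPKM with PI3Kdi. Every PI3Kdi library was above every TCR activated one, and the same-numbered pairs differed by 2.02 to 2.86 times. Il21 was the 1 member that rose with PI3Kdi, with a log2 fold change of 1.20 (SE 0.30, limma adjusted p = 0.0204). The call was lost with the activated groups fitted alone (adjusted p = 0.0521), without TCR replicate 2 (adjusted p = 0.0522) or 3 (adjusted p = 0.0622), and without PI3Kdi replicate 1 (adjusted p = 0.0682) or 2 (adjusted p = 0.0661).

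Il3 (Entrez 16187, chr11:54265085-54267279) encodes IL-3, a growth factor for blood cell precursors, mast cells and basophils. It was blank in the naïve libraries and was at 26.3, 26.2 and 9.09 FPKM in TCR activated cells. With PI3Kdi it was at 0.26 and 0.18 FPKM in replicates 1 and 2 and blank in replicate 3. The groups were separated by more than an order of magnitude, and 0.715% of the TCR activated mean remained. That share stands on an estimated 4 reads in 3 libraries, with a 95% counting interval of 0.195% to 1.83%, and was 0.439% without PI3Kdi replicate 1. The fall of 6.42 on the log2 scale (SE 0.49, limma adjusted p = 1.48e-05) was the second largest of all mRNA, and ranged from 4.10 with a pseudocount of 1 to 7.85 with a pseudocount of 0.01. Il3 could be listed only through the TCR activated libraries, where it is high, so this call and rank are no independent test. Against naïve cells, Il3 with PI3Kdi was not called (limma adjusted p = 0.0561). It was called higher with the replicate number as a block (adjusted p = 0.0142), at a pseudocount of 0.01 (0.0197), with those groups fitted alone (0.0427) and without PI3Kdi replicate 3 (0.00372), where each library held an estimated 0 to 2.3 reads. The annotated gene LOC115487722 overlaps Il3. Csf2, which encodes GM-CSF and lies 15.2 kb from Il3, is listed for CTL alone, where it was at 1.88 ± 0.783 FPKM with IL-2 and 0.670 ± 0.203 FPKM without (SD, n = 3).

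The pair of IL-10 family members, Il10 and Il24, had the largest falls of the members in CTL without IL-2. Il10 (Entrez 16153, chr1:131019845-131024970) encodes IL-10, which restrains myeloid cells and antigen presentation, and Il24 (Entrez 93672, chr1:130882074-130887411) encodes a relative that signals through receptors of epithelial cells. No promoter sequence is printed for Il10 and Il24. Il10 was blank in the naïve libraries. It was at 6.28, 2.99 and 7.06 FPKM in TCR activated cells and at 7.85, 4.82 and 6.86 FPKM with PI3Kdi, and these groups overlapped. The log2 fold change was 0.32 with a 95% confidence interval from -0.34 to 0.97 (limma adjusted p = 0.518). The interval leaves out a fall of the size seen in Tnf. In CTL, Il10 was at 66.9, 69.7 and 100.2 FPKM with IL-2 and at 0.25, 0.39 and 0.16 FPKM without. No mRNA of the CTL table fell further, at a log2 fold change of -7.78 (SE 0.24, limma adjusted p = 6.07e-08). Il10 was listed there through the libraries with IL-2, where it is high, so this call and rank are no independent test. An estimated 12 reads in the 3 deprived libraries stand behind the 0.338% that remained, with a 95% counting interval of 0.175% to 0.590%.

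Il24 was blank in the naïve libraries and was at 8.17, 4.30 and 1.43 FPKM in TCR activated cells, a spread of 5.71 times. With PI3Kdi it was at 0.59, 0.21 and 0.14 FPKM, below each TCR activated library. The log2 fold change was -3.36 (SE 0.54, limma adjusted p = 0.00185), and 6.76% of the mean remained, with a counting interval of 3.79% to 11.2% from an estimated 15 reads. Like Il3, Il24 was listed in the first table through the TCR activated libraries, so this call is no independent test. The fitted change ranged from -1.92 with a pseudocount of 1 to -4.02 without TCR replicate 3. The share that remained was 10.9% without TCR replicate 1 and 3.78% without PI3Kdi replicate 1. Against naïve cells, Il24 with PI3Kdi was called higher, and at a pseudocount of 1 it was not (log2 fold change 0.38, adjusted p = 0.350). In CTL, Il24 was at 35.1, 50.3 and 47.3 FPKM with IL-2 and at 0.22, 0.30 and 0.09 FPKM without. This was the third largest fall in the CTL table, at -7.24 (SE 0.26, limma adjusted p = 1.11e-07), with 0.460% remaining and a counting interval of 0.199% to 0.906% from an estimated 8 reads. As with Il10, the listing came through the libraries with IL-2, and the call and rank are no independent test. Il10 and Il24 had higher mean levels in CTL with IL-2 than in TCR activated cells, by 14.5 and 9.54 times, across tables that were normalized separately.

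Lif (Entrez 16878, chr11:4257568-4272514) encodes leukaemia inhibitory factor, which signals through the LIF receptor and gp130. Lif was at 0.08, 0.06 and 0.06 FPKM in naïve cells and at 142, 121 and 97.2 FPKM after TCR activation, the 9th largest rise on the log2 scale. With PI3Kdi it was at 67.4, 58.5 and 43.6 FPKM. The groups did not overlap, and the same-numbered pairs kept between 44.8% and 48.5% of the TCR activated level. Lif fell by 1.09 on the log2 scale (SE 0.17, limma adjusted p = 0.00173), close to the fold limit, and was under that limit without TCR replicate 1 (log2 fold change -0.96) or PI3Kdi replicate 3 (-0.91). In CTL, Lif was at 80.9, 89.3 and 101.7 FPKM with IL-2 and at 1.84, 2.14 and 1.16 FPKM without. That fall of 5.68 on the log2 scale (SE 0.19) was the 7th largest of the CTL table. Osm, which encodes oncostatin M of the same family and lies 16.5 kb from Lif, was at 39.3 ± 6.47 FPKM in TCR activated cells and 16.8 ± 0.977 FPKM with PI3Kdi. It was at 66.0 ± 3.36 FPKM in CTL with IL-2 and 10.9 ± 2.54 FPKM without (SD, n = 3). Osm fell in both comparisons, by 1.21 and 2.61 on the log2 scale.

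The share of the TCR driven rise that PI3Kdi left in place differed widely between cytokines. It was computed as the excess over naïve cells with PI3Kdi, divided by the excess without it. Il3 kept 0.715%, Ifng 1.48%, Il24 6.76% and Lta 8.18% of the rise. Il2 kept 26.9%, Tnf 33.1% and Lif 47.1%. Il10 kept 119.6% and Il21 242%. Over the same-numbered pairs the SD was 0.256 percentage points for Ifng, 1.90 for Lif, 12.3 for Tnf and 21.6 for Il2 (n = 3), and the pairs of several neighbours in this order overlapped. Il24, from 4.88% to 9.79%, lay within the range of Lta, from 4.46% to 11.2%. Il2, from 16.2% to 59.3%, spanned the ranges of both Tnf, from 20.5% to 44.7%, and Lif, from 44.8% to 48.4%. The lowest pair of Il21, at 202%, was above the highest pair of Il10, at 161%. Ltb has no rise to keep. Against naïve cells, 8 members were higher with PI3Kdi and Ltb was lower, with 45% of all mRNA called, 23.6% higher and 21.3% lower. Il2, Il10, Il21 and Il24 among these 8 were blank in every naïve library, so their calls are no test.

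**Figure D2:**
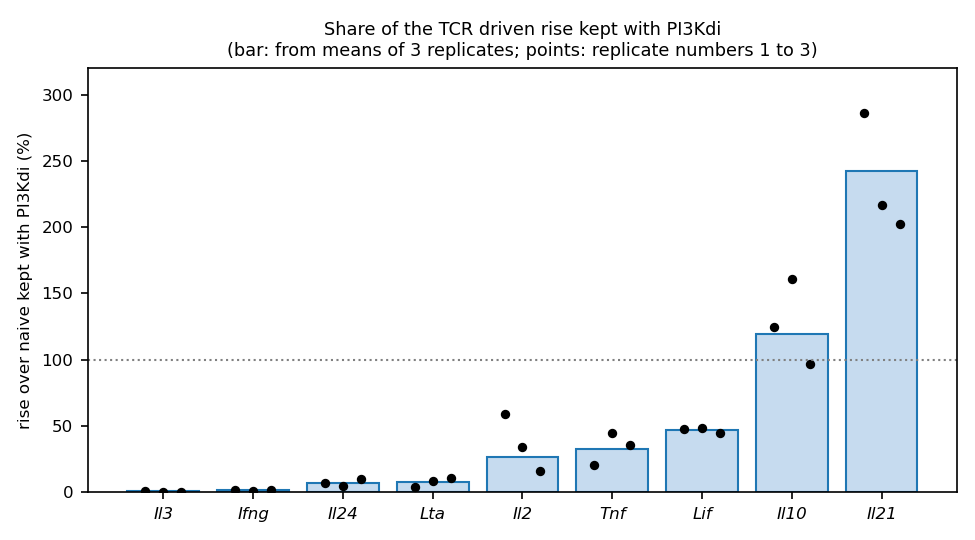
Percentage of the rise over naïve cells that was kept with PI3Kdi, for the 9 cytokine mRNA that rose on TCR activation (bars from group means, points for replicate numbers 1 to 3, dotted line at 100%). By their bars, Il3 to Lta lie at 0.715% to 8.18%, Il2, Tnf and Lif at 26.9% to 47.1%, and Il10 and Il21 at 119.6% and 242%, while the points of Il2 range from 16.2% to 59.3%.

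PI3Kdi and IL-2 withdrawal were then compared cytokine by cytokine. The effects were taken each within its own table, and the log2 ratio of the PI3Kdi fold to the withdrawal fold was tested in a joint limma fit of 15 libraries and the 10637 mRNA in both tables. All 7 members that could be tested differed, with 22.2% of those mRNA called, 11.4% with a higher and 10.8% with a lower ratio. Ifng fell further with PI3Kdi, by 1.45 on the log2 scale (SE 0.32, adjusted p = 0.00126). The other 5 falling mRNA fell further without IL-2 or fell there alone. The log2 ratio was 8.09 for Il10 (SE 0.42, adjusted p = 7.29e-09), 4.59 for Lif (SE 0.28, adjusted p = 2.13e-08) and 3.88 for Il24 (SE 0.69, adjusted p = 0.000231), or 3.22 without TCR replicate 3. With PI3Kdi, Il10 and Il24 could not fall by more than their fitted rises from blank naïve libraries, 5.70 and 5.25. Without IL-2 their log2 fold changes were -7.78 and -7.24. The sign of their log2 ratios was thus fixed by the starting levels, and is no test. It was 2.10 for Tnf (SE 0.22, adjusted p = 1.96e-06) and 1.13 for Lta (SE 0.32, adjusted p = 0.00777). For Ltb, the rise without IL-2 exceeded the change with PI3Kdi by 2.05 on the log2 scale (SE 0.29, adjusted p = 3.31e-05). The Lta difference was not called without PI3Kdi replicate 3 (0.83, adjusted p = 0.0157) or with 1 library of CTL with IL-2, the other 2 being those whose treatment labels conflict (0.89, adjusted p = 0.0931). The comparisons also differ in cell state, since one is made during first activation and the other in CTL after days of culture, and state and treatment cannot be told apart.

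**Figure D3:**
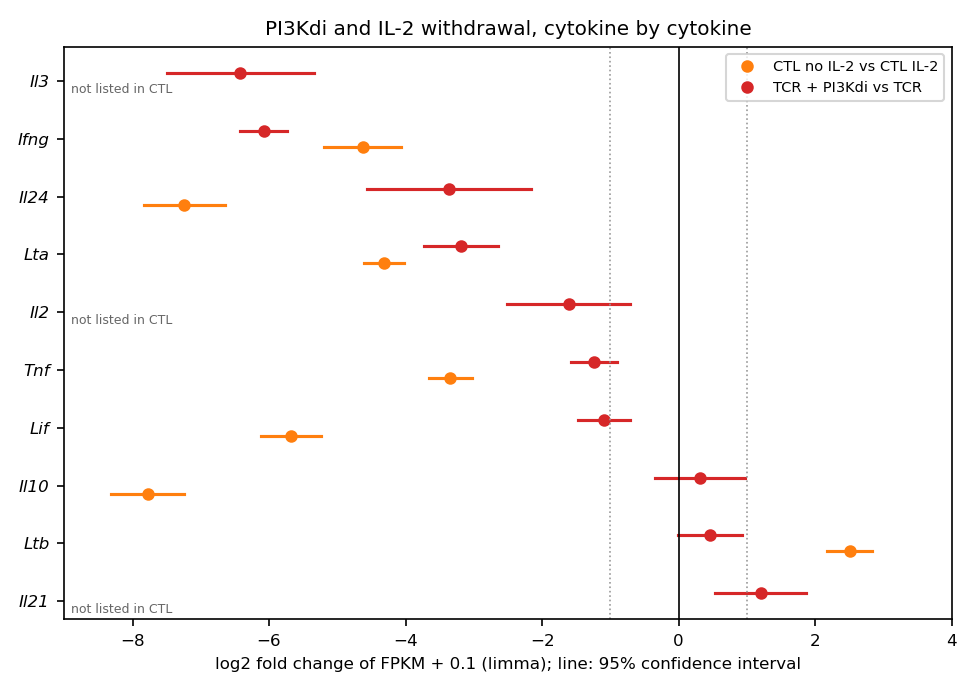
Log2 fold change of each cytokine mRNA with PI3Kdi against TCR activated cells (red) and in CTL without against with IL-2 (orange), with 95% confidence intervals from limma. Dotted lines mark the fold limit of 2. Il10 sits near 0 with PI3Kdi and at -7.78 without IL-2, and Ifng is the one mRNA measured in both with the larger fall on the red side.

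Other cytokine mRNA gave a setting for these values. Of 47 further cytokine genes, 18 were listed in the first table, where 2 rose and 7 fell with PI3Kdi (median log2 fold change -0.48), beside 5.14% of all mRNA called. Il22, an IL-10 relative, fell by 4.05 on the log2 scale, from 2.497 ± 0.471 to 0.0900 ± 0.156 FPKM. Fasl, a death ligand, fell by 2.82, from 1.01 ± 0.348 to 0.0533 ± 0.0231 FPKM, and Cd40lg, the ligand of CD40, by 2.35. Il16 rose by 1.66 and Tnfsf8, the CD30 ligand, by 1.11. Of 22 listed in the CTL table, 4 rose and 7 fell without IL-2 (median -0.08), beside 28.2% of all mRNA called. Il13 was at 1.84 ± 0.488 FPKM with IL-2 and listed at 0 without it. Il4 fell by 2.77 and Tnfsf11, which encodes RANKL, by 3.14, while Il18 rose by 2.39 and Tnfsf13b, which encodes BAFF, by 1.39. Il16, Osm and Tnfsf11 passed in the same direction in both comparisons. Ebi3, the shared subunit of IL-27 and IL-35, passed in opposite directions, with log2 fold changes of -2.37 with PI3Kdi and 1.30 without IL-2. Fasl was not called without IL-2 (log2 fold change -0.43, adjusted p = 0.0699), nor was Cd40lg (0.74, under the fold limit).

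**Figure D4:**
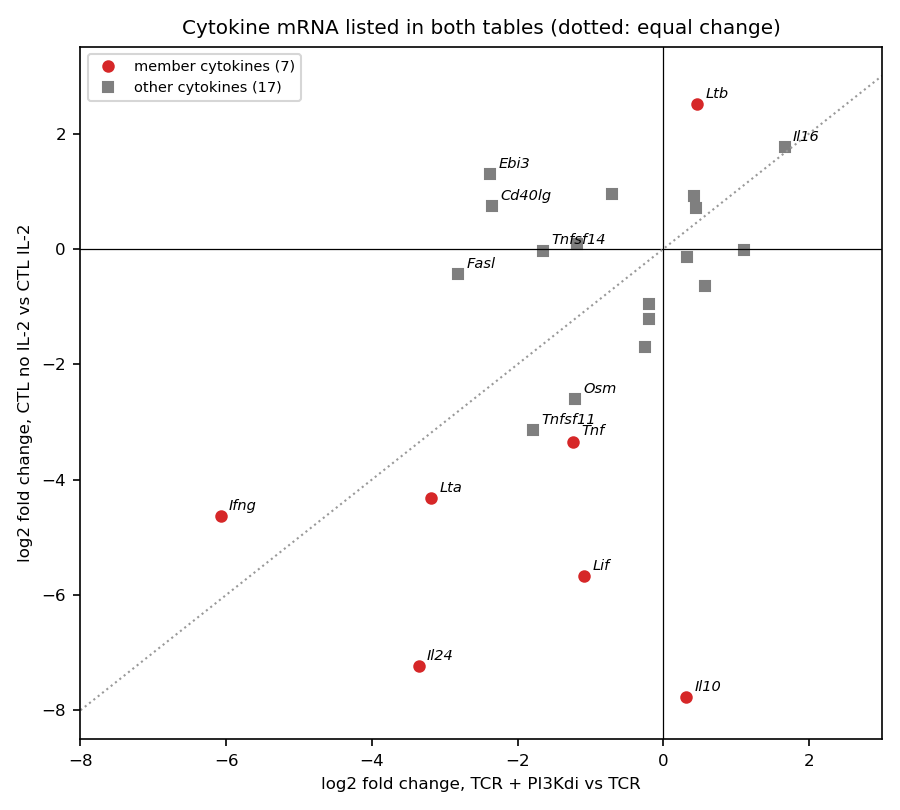
Log2 fold change with PI3Kdi (x axis) against that without IL-2 (y axis) for 7 member cytokines (red circles) and 17 other cytokines (grey squares) listed in both tables. Member mRNA other than Ifng and Ltb lie below the dotted line of equal change, and Ebi3, Cd40lg and Fasl lie to the left, with falls of 2.35 to 2.82 with PI3Kdi.

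Of the 14 listed receptor mRNA of these cytokines, limma called 0 with PI3Kdi (median log2 fold change 0.07), where 5.14% of all mRNA were called. With no fold limit, 4 of 14 had a limma adjusted p below 0.05, beside 1975 of all 11262 mRNA. At an unadjusted p below 0.05 the count was 7 of 14, and the share of all mRNA at that limit was not taken. Il2ra, the high affinity subunit of the IL-2 receptor, had a log2 fold change of 0.03 with PI3Kdi. In CTL without IL-2, 2 of 14 receptors rose and 2 fell, where 28.2% of all mRNA were called: Il2ra from 508 ± 56.2 to 98.5 ± 14.3 FPKM and Ltbr at under 1 FPKM, against Il6st, which encodes gp130 (log2 fold change 1.17), and Ifngr1 (1.03). Of 19 listed mRNA induced by interferon-γ, 9 rose and 1 fell with PI3Kdi, in the cells in which Ifng fell and with 5.14% of all mRNA called. Gbp2, a guanylate binding protein, was at 52.6 ± 26.3 FPKM in TCR activated cells and at 650.5 ± 167 FPKM with PI3Kdi, which is 3.70 on the log2 scale (SE 0.28). Iigp1 rose by 1.97, Gbp7 by 1.47 and Gbp4 by 1.46, and Cxcl10, a chemokine, fell by 2.19 (SE 0.68, limma adjusted p = 0.0478). The Cxcl10 libraries overlapped, at 3.89 to 17.65 FPKM in TCR activated cells and 0.66 to 5.31 FPKM with PI3Kdi. Interferons other than interferon-γ induce these mRNA too. Without IL-2, 1 of 20 rose (Irf9, 1.12) and 5 fell, a share near the 28.2% of all mRNA called. Those that fell included Irf8 by 3.54, Iigp1 by 2.06 and Socs1, an inhibitor of cytokine signalling, by 1.97.

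Of 31 transcription factors and signal proteins that regulate cytokine genes, 2 rose and 5 fell with PI3Kdi, where 5.14% of all mRNA were called. Maf, a regulator of Il10 and Il21, rose from 0.967 ± 0.366 to 4.90 ± 1.07 FPKM (log2 fold change 2.27), and Ikzf3, which encodes Aiolos, rose by 1.34. Eomes, a T-box factor that acts at Ifng, fell by 1.497, Nfkb1 by 1.42, Stat5a by 1.41 and Rel by 1.20. Of 30 listed in CTL, 4 rose and 6 fell without IL-2, a share near the 28.2% of all mRNA called. Eomes fell by 3.02, Fos by 3.29, Egr1 by 2.65 and Fosl2 by 1.99. Ikzf3 rose by 2.14, Stat4 by 1.66, Relb by 1.26 and Foxo1 by 1.20. Among 11 mRNA of proteins that destabilize or bind cytokine mRNA, 3 rose with PI3Kdi, beside 5.14% of all mRNA: Zfp36l1 (1.24), Zc3h12d (1.14) and Zfp36, which encodes tristetraprolin (1.13). Zfp36l1 (1.27) and Zc3h12d (1.98) also rose without IL-2, with Zfp36l2 (1.00), and Hnrnpd and Elavl1 fell by 1.17 and 1.13, which makes 5 of 11 beside 28.2% of all mRNA.

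The mRNA whose levels ran most like each member were sought by Pearson's r of log2(FPKM + 0.1) over the libraries, each centred on the mean of its table. The points are 3 or 5 tight groups, so that high r values are common. Over 15 libraries, Lif was most like Bcat1 (r = 0.998) and Prep (0.997), Ltb like Crtc3 and Smad4 (both 0.995), Il10 like Gcn1l1 (0.992) and Phb (0.991), and Ifng like Gfod1 and Galnt3 (both 0.99). Il24 was most like Adora2b (0.989), Tnf like Ptger3 (0.988) and Lta like Fxr2 (0.979). Over the 9 libraries of the first table, Il3 was most like Fasl (0.988), Il2 like Eed (0.996) and Il21 like Cd24a (0.996). Between members, the extremes were Ltb with Lif (r = -0.993) and Tnf with Lta (0.967).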

How the data were processed

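RNA sequencing of mouse CD8+ T cells was taken from 2 tables of 9 and 6 libraries. The authors deposited both as FPKM rounded to 2 decimals. Per the study's methods for the first table and the submitters' processing notes, reads were aligned with STAR 2.5.2b to mm10 and counted per gene with Subread 1.5.1, then filtered, TMM-normalized in edgeR and divided by exon length. For the CTL table the same steps were assumed. Blank cells of the first table were read as 0. No read counts were used, and read numbers were estimated from the spacing of low FPKM.

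Samples were grouped by title. Values of log2(FPKM + 0.1) were fitted with limma 3.58.1 in R 4.3.3 with an intensity trend, 9 libraries sharing 1 fit and 6 CTL libraries another. A joint fit of 15 libraries tested the difference of effects. The Benjamini-Hochberg adjustment of p-values ran over every mRNA of a fit. The comparisons share samples, TCR activated and PI3Kdi libraries entering 3 of them each, naïve libraries 2 and CTL libraries 2. Same-numbered libraries were taken as pairs where their deviations correlated above 0.1: r was 0.275, 0.203 and 0.506 with and without PI3Kdi, and 0.123, 0.166 and 0.257 with and without IL-2. For naïve and TCR activated cells it was -0.141, 0.226 and -0.181, and for naïve cells and those with PI3Kdi -0.0147, -0.0171 and 0.0303. The shares of the rise kept per pair still subtract the same-numbered naïve library. Libraries of different number also passed 0.1, as PI3Kdi replicate 1 did with TCR replicate 2 (0.191). So did TCR replicate 1 with naïve replicate 3 (0.378) and TCR replicate 3 with naïve replicate 2 (0.107). The labels describe pools of 3 mice divided among conditions and do not tie numbers to pools. Same-numbered CTL were paired on these values alone.

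The members and lists were chosen with earlier results of these data known. From each list the 4 largest called rises and falls per comparison were open to naming, beside the members, their neighbours within 100 kb and the 2 mRNA most like each. Alternatives were other pseudocounts (1, 0.01), mean FPKM of at least 1, median scaling, a replicate block, no trend, only the groups compared, other fold limits and leaving out libraries. The fit was tried on simulated data with 200 mRNA changed by 3 on the log2 scale. For TCR activated cells with and without PI3Kdi it recovered 98.5%, with 6 false calls among 11262 mRNA. The simulated noise was normal on the log scale, as the fit assumes. The trial does not cover smaller changes, such as those of Lif, Il21, Tnf and Il2 with PI3Kdi, or mRNA with few reads. Loci and promoters are from RefSeq on GRCm38.p6, and 8 of 10 members matched a promoter. Python 3.11.15, pandas 2.3.3, numpy 2.4.6 and matplotlib 3.10.9 were used.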

Additional observations from a re-analysis of the deposited data

Results flagged for a closer look

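The effects of PI3Kdi in activating cells and of IL-2 withdrawal in CTL differed, by the test of the difference itself, for each of the 7 cytokines listed in both tables. Given as the log2 ratio of the PI3Kdi fold to the withdrawal fold, the values were -1.45 for Ifng, 2.10 for Tnf, 1.13 for Lta, -2.05 for Ltb, 8.09 for Il10, 3.88 for Il24 and 4.59 for Lif. For Il10 and Il24 the sign of this ratio was fixed by their starting levels. Il10 had the widest gap, with mean levels of 6.51 and 5.44 FPKM with and without PI3Kdi against 0.267 and 79.0 FPKM without and with IL-2. Ifng was the 1 cytokine of the 7 with the larger fall under PI3Kdi.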

How the results depend on the processing

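Of 44 pairs of a cytokine and a comparison, 38 gave the same call under every alternative run. The number of members called was 10 of 10 for TCR activation and 7 of 7 for IL-2 withdrawal throughout. It was 6 to 8 for PI3Kdi against TCR activated cells and 6 to 7 for the difference of effects. For PI3Kdi against naïve cells it was 8 to 10. Both counts against naïve cells include members that were blank in every naïve library. The other counts include members listed through their high group alone, Il3 and Il24 with PI3Kdi and Il10 and Il24 without IL-2. The 6 other pairs, Il2, Il21 and Lif with PI3Kdi, Il3 and Il24 against naïve cells and the Lta difference, are given with their values in the report. The Il10 change with PI3Kdi, not called, reversed to -0.061 (limma adjusted p = 0.898) without TCR replicate 2, and leaving out each library in turn gave -0.061 to 0.55. Its adjusted p ranged from 0.274 to 0.898.

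With the replicate number as a block, the members called were 8 for PI3Kdi against TCR activated cells, 10 for PI3Kdi against naïve cells, 10 for TCR activation, 7 for IL-2 withdrawal and 7 for the difference. Pairing changed 1 member's call, that of Il3 against naïve cells.

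Over all mRNA, PI3Kdi gave 579 calls, and 311 with a pseudocount of 1, 1120 with a fold limit of 1.5 and 1975 with none. Those last 2 limits gave 5657 and 8056 calls for IL-2 withdrawal in place of 3166, and 4322 and 5656 for the difference in place of 2362. No fold limit gave 9096 calls for TCR activation in place of 5490 and 8906 for PI3Kdi against naïve cells in place of 5063. Median scaling moved the median log2 fold change of all mRNA on TCR activation to 0.12 and changed no member's call. Depth limits Il3 with PI3Kdi and Il10 and Il24 without IL-2, which rest on 4, 12 and 8 estimated reads.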
